A study of Bos taurus with 14 samples.

Results

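The genes described here are the myostatin and activin receptor axis of cattle muscle: the ligand MSTN, the antagonists FST and FSTL3, the type II receptors ACVR2A and ACVR2B, the type I receptors ACVR1B and TGFBR1, the signal carriers SMAD2 and SMAD3, and the inhibitory SMAD7. They were chosen by name, and all 10 were found, 1 row each, among the 18078 gene rows measured. RNA was sequenced from the longissimus dorsi, a long back muscle, in 14 female cattle killed 485 days after birth. Of these, 7 (restricted) had dams that were underfed from day 158 of gestation until they calved, and 7 (control) had dams that received 100% of their nutrient requirement. The labels disagree on the restricted level, with 70% in the description of the series and 50% in the treatment protocol, so it is given no percentage here. All offspring were kept alike after birth, with feed offered without limit from day 301, and each sample was 1 animal. Parentage beyond the diet of the dam is not given in the sources used here.

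Myostatin is a secreted member of the TGF-beta family, made mainly by skeletal muscle, that limits muscle mass, and cattle breeds without a working copy are double-muscled. It binds ACVR2B or ACVR2A, which recruit and switch on ACVR1B or TGFBR1; these phosphorylate SMAD2 and SMAD3, which enter the nucleus together with SMAD4. Follistatin (FST) and follistatin-like 3 (FSTL3) bind the ligand outside the cell and keep it from its receptors, and SMAD7, itself a target gene of the pathway, blocks the activated receptor.

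Total counts ran from 13631018 to 17325779 per animal. The fibre markers were abundant in every library, with ACTA1, CKM, MB and DES together at 73701 to 91017 CPM (read counts scaled to a common library size and composition) in restricted animals and at 64495 to 86195 CPM in control animals. Restricted 4, restricted 7 and control 7 stood apart on 14 interferon response genes, whose summed level was 181.2, 478.0 and 237.3 CPM, against 17.8 to 63.0 CPM in the other 11 animals. The titles of 5 samples end in B (3 restricted, 2 control) and those of 9 in A (4 restricted, 5 control); the labels do not say what the letters mean. Because whole muscle was sequenced, a lower level can come from fewer cells of a type or from less RNA per cell, and these cannot be told apart.

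The first question was how much of each transcript the muscle held. Levels between genes are compared per kilobase of the gene length listed in the deposited table. SMAD2 led with 12.8 ± 0.941 CPM per kilobase (SD, n = 14), and MSTN came next with 8.04 ± 2.19. ACVR2A had 5.20 ± 0.425, ACVR1B 4.62 ± 0.941, SMAD7 4.24 ± 2.92, SMAD3 3.96 ± 0.671 and TGFBR1 3.46 ± 0.521 CPM per kilobase. FST followed with 2.01 ± 0.409, ACVR2B with 1.24 ± 0.142 and FSTL3 with 0.476 ± 0.180. Among all 12187 genes tested, SMAD2 stood at percentile 73.3 of level per kilobase, MSTN at 63.1 and FSTL3 at 6.92, with the other members between SMAD2 and FSTL3.

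Neighbours in that order were compared within animals. SMAD2 lay above MSTN in 13 of 14 animals, by 0.72 ± 0.41 log2 units (SD), and MSTN above ACVR2A in 13 of 14, by 0.59 ± 0.42. The order of MSTN and ACVR2A rests largely on their listed lengths, 2997 and 4456 bases. Without lengths MSTN averaged 24.1 CPM and ACVR2A 23.2 CPM. From ACVR2A through ACVR1B, SMAD7 and SMAD3 to TGFBR1, each gene differed from its neighbour by less than 1 SD of the within-animal difference. The upper gene lay above its neighbour in 10, 9, 6 and 8 of 14 animals in turn. That SD describes the spread between animals, not the error of the mean, so the order of these means was not tested. Some pairs further apart differed by more than 1 SD. ACVR2A lay above SMAD3 and above TGFBR1 in 14 of 14 animals, with or without lengths. ACVR1B lay above TGFBR1 per kilobase in 13 of 14 animals, but in 6 of 14 without lengths. TGFBR1 exceeded FST, FST exceeded ACVR2B and ACVR2B exceeded FSTL3 in all 14 animals. ACVR1B is listed with a length of 1585 bases, the shortest of the 10, and each level per kilobase depends on the listed length.

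**Figure D1:**
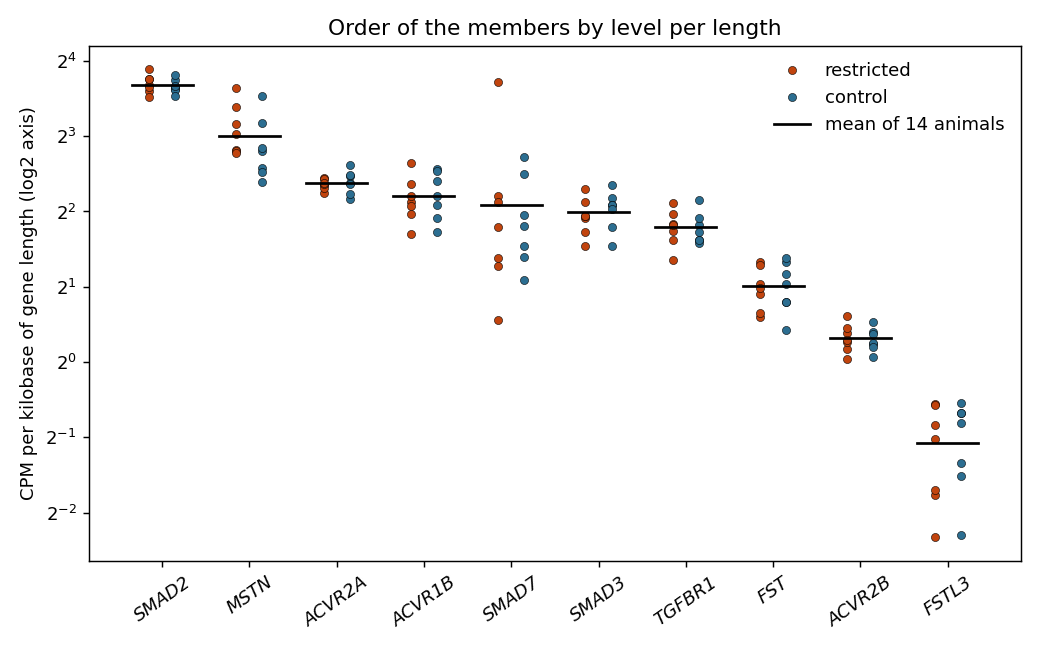
Level of each member in CPM per kilobase of listed gene length, on a log2 axis, with 1 point per animal (restricted left, control right) and a line at the mean of 14 animals. SMAD2 and MSTN sit highest, ACVR2B and FSTL3 lowest, and the SMAD7 points spread over the widest range.

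Several members have a partner with a like task, and their balance was given per kilobase within each animal. For the type II receptors, ACVR2A exceeded ACVR2B in 14 of 14 animals, 4.12-fold in restricted and 4.27-fold in control animals as geometric means, with a range over all animals of 3.37 to 5.34. SMAD2 exceeded SMAD3 in 14 of 14, 3.41-fold in restricted and 3.15-fold in control animals. TGFBR1, the type I receptor best known for TGF-beta itself, was below ACVR1B, the type I receptor of activin, in 13 of 14 animals per kilobase, the exception being restricted 6. That order rests on the listed lengths: without them TGFBR1 averaged 7.52 CPM and ACVR1B 7.32 CPM, and ACVR1B was the higher in 6 of 14 animals. MSTN exceeded FST 4.34-fold in restricted and 3.59-fold in control animals, reaching 7.90-fold in restricted 7 and 2.57-fold in control 4 at the extremes. These ratios compare transcripts, which need not match amounts of protein, and the ranges of the 2 diets overlapped for each of them.

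The second question was whether underfeeding of the dam before calving left a difference in these genes at day 485. The quasi-likelihood test of edgeR was run on 12187 genes with p-values adjusted by Benjamini-Hochberg. None of the 10 members passed the threshold of 0.05 (edgeR adjusted p = 1.0 for each), and 0 of all genes passed (0%). At an unadjusted p under 0.05 there were 0 of 10 members, against 4.25% of all genes; their unadjusted p ran from 0.204 for MSTN to 0.976 for TGFBR1. With DESeq2, 1 gene of the whole table passed, MTSS1L, which is not a member and was lower in restricted animals. With voom from limma, and with the exact test from edgeR, 0 genes passed. The members' median log2 fold change, restricted over control, was -0.015, and that of all genes -0.00079. The ranges of the 2 diet groups overlapped for all 10, and groups that did not overlap were found for 0.0574% of all genes tested.

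MSTN showed the smallest p of the 10 and a wide spread between animals. Its lowest, median and highest values were 20.6, 24.4 and 37.3 CPM in restricted animals, against 15.8, 20.8 and 34.8 CPM in control animals. Restricted 7 and control 6 held the highest values, and 6 of 7 restricted animals lay above the control median. The fold change was 1.18 with a 95% interval of 0.908 to 1.53 (log2 0.23 ± 0.18 SE, edgeR unadjusted p = 0.204). It depended on single animals: the log2 value was 0.38 without control 6 (unadjusted p = 0.028) and 0.13 without restricted 7. Without the 3 libraries high in interferon genes, of which restricted 7 and restricted 4 (31.3 CPM) were 2 of the 3 highest for MSTN, it was 0.032 (unadjusted p = 0.866).

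Both antagonists had fold changes slightly below 1. FST had a lowest, median and highest value of 3.97, 5.17 and 6.59 CPM in restricted animals and of 3.54, 5.37 and 6.85 CPM in control animals. Its fold change was 0.97 (0.773 to 1.23). FSTL3 rested on 6 to 25 reads per animal, with 0.441, 1.09 and 1.51 CPM in restricted animals and 0.452, 1.26 and 1.51 CPM in control animals. Both groups thus spanned nearly the same range, and the interval of its fold change, 0.591 to 1.43 around 0.919, left room for a difference of over 1.5-fold downward.

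All 4 receptors had fold changes near 1. ACVR2A, which binds both activins and myostatin, had 21.1, 23.1 and 24.2 CPM (lowest, median, highest) in restricted animals, against 19.9, 23.3 and 27.4 CPM in control animals. All 7 restricted animals fell inside the control range, and the fold change was 0.977 (0.877 to 1.09). ACVR2B, the type II receptor that myostatin binds most tightly, had 3.31, 3.96 and 4.90 CPM in restricted and 3.38, 3.84 and 4.65 CPM in control animals, a fold change of 1.02 (0.860 to 1.2). The type I receptor ACVR1B had 5.17, 6.90 and 9.88 CPM in restricted and 5.26, 7.29 and 9.33 CPM in control animals, a fold change of 0.964 (0.770 to 1.21). TGFBR1 had 5.55, 7.64 and 9.40 CPM in restricted animals and 6.52, 7.20 and 9.62 CPM in control animals. Its fold change, 1.0, was the closest to 1 of the 10, with an interval of 0.839 to 1.2.

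Of the SMADs, the 2 signal carriers had fold changes near 1 and the inhibitor was scattered. SMAD2 had 25.6, 28.5 and 32.9 CPM in restricted and 25.7, 28.0 and 31.3 CPM in control animals, a fold change of 1.03 (0.928 to 1.13), the narrowest interval of the set. SMAD3 had 6.62, 8.70 and 11.2 CPM in restricted and 6.63, 9.62 and 11.6 CPM in control animals, a fold change of 0.941 (0.777 to 1.14). SMAD7 had 3.96, 9.32 and 35.4 CPM in restricted animals, against 5.71, 9.42 and 17.7 CPM in control animals. Restricted 6, at 35.4 CPM, stood above all other animals, and the restricted group held both the highest and the lowest value of the 14. The fitted fold change of SMAD7 was 1.17 with an interval of 0.661 to 2.09. Its sign rested on restricted 6: the log2 value was 0.23 with all animals, -0.30 without restricted 6 and 0.41 without control 2, and the difference of mean log2 CPM was 0.013 (two-sided exact permutation p = 0.97).

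The intervals of 7 of the 10 members excluded a 1.5-fold difference in both directions, against 77.8% of all genes tested. The 3 others were MSTN, FSTL3 and SMAD7, and SMAD7 alone among the 10 did not exclude a 2-fold difference. These intervals are not adjusted for the number of genes. With 7 animals a group, a difference inside them, or a somewhat larger one after adjustment over all genes, could go undetected.

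**Figure D2:**
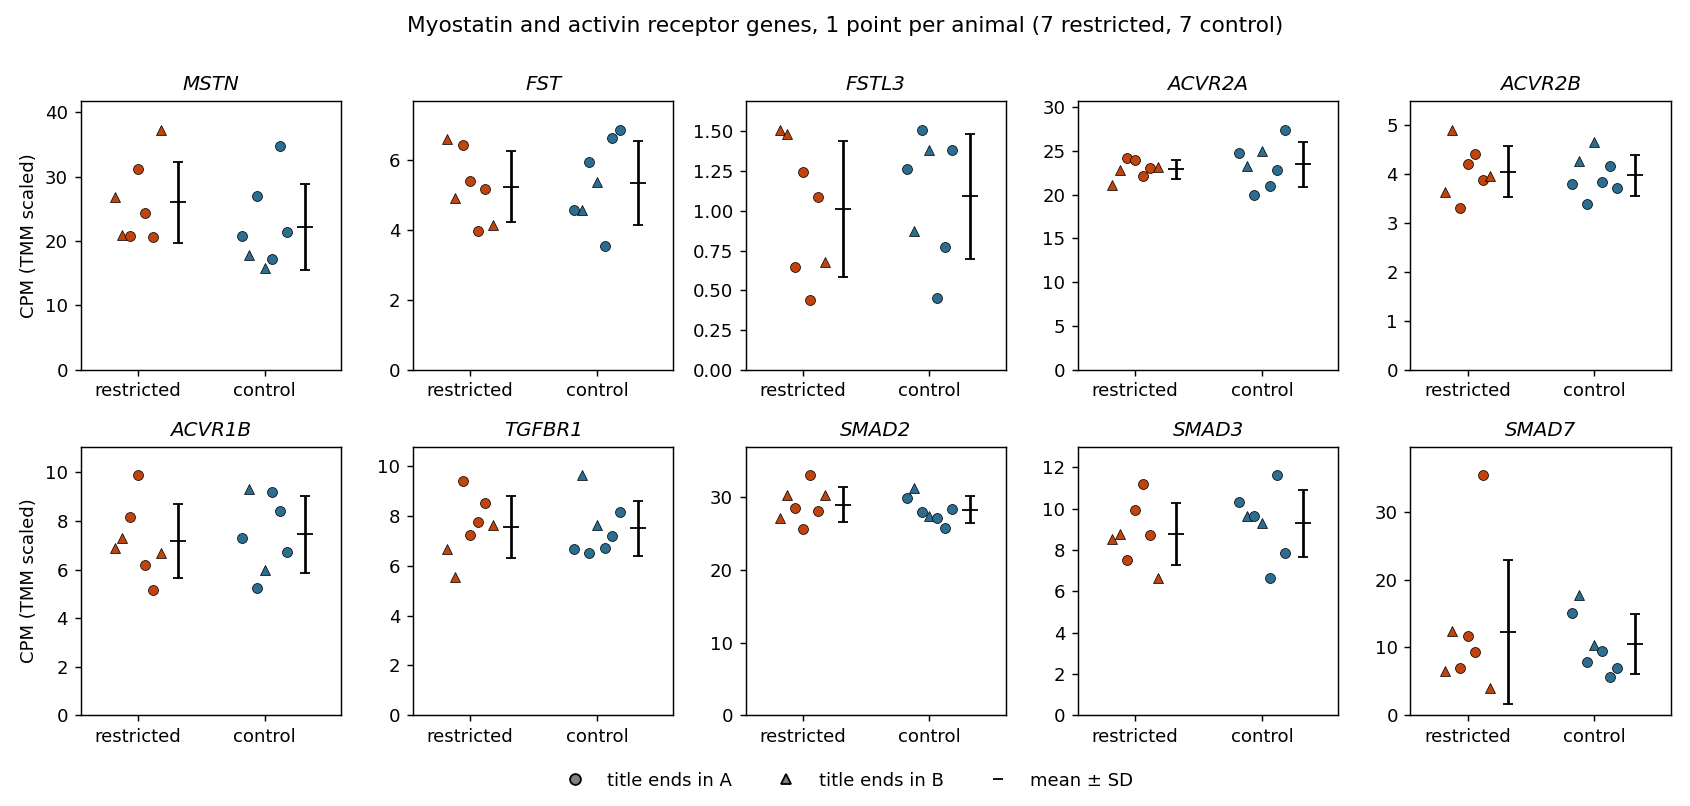
CPM of each member in every animal, restricted left and control right, with the mean ± SD beside the points; circles are titles ending in A and triangles titles ending in B. The groups overlap in each panel, and restricted 6 stands at 35.4 CPM for SMAD7.

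**Figure D3:**
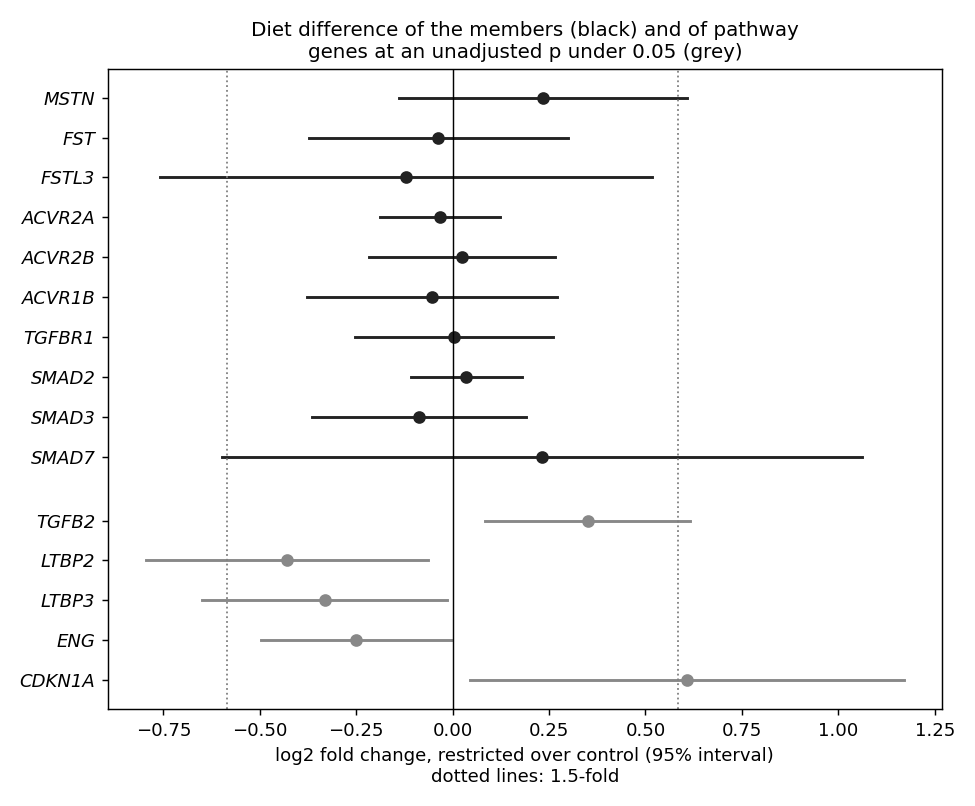
Log2 fold change, restricted over control, with its 95% interval for the 10 members (black) and for the 5 other pathway genes with an unadjusted p under 0.05 (grey); dotted lines mark 1.5-fold. Every black interval crosses 0, with MSTN and SMAD7 farthest to the right.

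How much the animals differed among themselves was set beside counting error. SMAD7 varied most, with a coefficient of variation of 68.9% over the 14 animals, where its mean of 177.2 reads would give 7.51% from counting alone. It spanned 8.93-fold from restricted 7 to restricted 6, and its biological coefficient of variation from edgeR, 0.499, stood at percentile 98 of all genes tested. MSTN varied by 27.3% against 5.11% from counting (2.36-fold from lowest to highest, percentile 79.1). FSTL3 varied by 37.7%, where counting alone would give 24.5%. At the other end, SMAD2 varied by 7.33% (4.70% from counting, percentile 4.07) and ACVR2A by 8.17% (5.22%, percentile 7.98). ACVR2B varied by 11.4% over the animals, no more than the 12.5% that counting gives for its 63.6 reads. FST and ACVR1B varied by 20.3% and 20.4%, SMAD3 by 16.9% and TGFBR1 by 15%. The ligand and the inhibitor thus differed between animals by more than the type II receptors and SMAD2 did.

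The last letter of the sample title was examined next, since its meaning is not given and both letters occur in each diet group. In a fit with diet and letter, 0 of 10 members passed an adjusted p of 0.05 between letters and 0 of 12187 genes did (0%), by edgeR. At an unadjusted p under 0.05 there were 0 members, against 5.92% of all genes. ACVR2B had the smallest p, with a fold change of 1.11 (0.935 to 1.32), B over A (edgeR unadjusted p = 0.215).

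The diet difference itself was then taken within each letter, a comparison added after the values had been seen. For MSTN, the animals with titles ending in B had 26.9, 21.0 and 37.3 CPM when restricted, against 17.9 and 15.8 CPM when control, so that these groups did not overlap. With 3 animals against 2, the same held for 21.1% of all genes tested and for 4 of the 10 members (MSTN, ACVR2A, TGFBR1 and SMAD3). Among titles ending in A, MSTN had 20.6 to 31.3 CPM in 4 restricted animals, against 17.2 to 34.8 CPM in 5 control animals. The log2 fold change was 0.76 within B (edgeR unadjusted p = 0.0156, adjusted 0.933) and -0.0022 within A. For TGFBR1 it was -0.38 within B and 0.22 within A, with 6.65, 5.55 and 7.64 CPM in restricted animals and 9.62 and 7.65 CPM in control animals of letter B. For SMAD7 it was -0.88 within B and 0.82 within A, where restricted 6 belongs.

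The difference between the letters in these diet effects was tested with an interaction term in edgeR's fit over all genes. Its log2 value was 0.76 for MSTN (0.011 to 1.5), -0.60 for TGFBR1 (-1.08 to -0.13) and -1.70 for SMAD7 (-3.30 to -0.10), B minus A, with unadjusted p-values of 0.0472, 0.0161 and 0.0383. These 3 of 10 members had an unadjusted p under 0.05, against 5.06% of all genes. After adjustment over all genes the smallest value among the members was 0.933, and 0 genes of the table passed. With 2 control animals in letter B, each of these values rests on few animals. For SMAD7, letter A holds restricted 6 at 35.4 CPM. The other restricted animals of letter A had 7.00, 11.7 and 9.32 CPM, and its control animals 5.71 to 15.1 CPM. The interaction was not fitted without restricted 6. MSTN and SMAD7 also ran against each other over the animals (r = -0.55), so these need not be separate results.

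**Figure D4:**
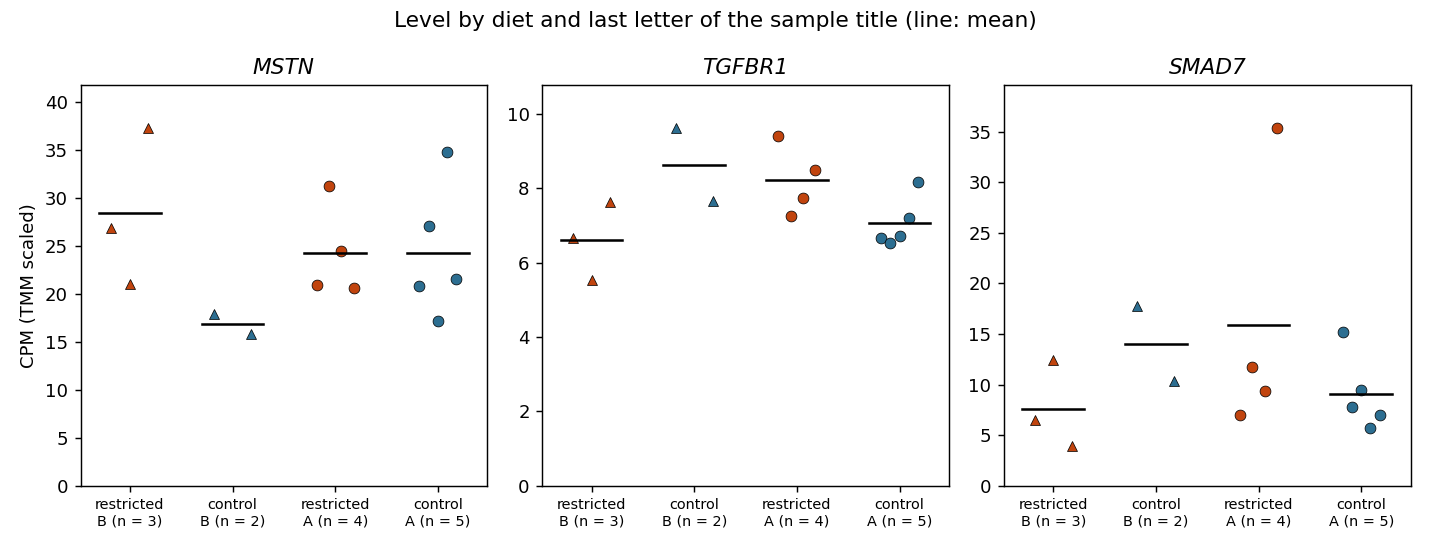
CPM of MSTN, TGFBR1 and SMAD7 by diet and last letter of the sample title, with 1 point per animal and a line at the mean. For MSTN the 3 restricted animals of letter B lie above the 2 control animals of letter B, while the letter A groups overlap.

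The third question was whether the members varied together over the 14 animals. Of 45 pairs of members, 0 passed the threshold by Pearson's r on log2 CPM, with Benjamini-Hochberg adjustment over the 45 pairs (smallest adjusted permutation p = 0.878), and 2 pairs had an unadjusted p under 0.05. MSTN ran against SMAD7, with r = -0.55 (permutation p = 0.0397, adjusted 0.878) and rho = -0.65 (permutation p = 0.0145, adjusted 0.653). Without control 6 and restricted 7, the animals farthest from the MSTN median, r was weaker, at -0.26. Leaving them out also narrows the range of MSTN, so this value cannot show how far the relation rested on them. Without single animals r ran from -0.63 to -0.40. Within letter A r was -0.34 (n = 9).

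The antagonists FST and FSTL3 ran together, with r = 0.57 (permutation p = 0.0385, adjusted 0.878) and rho = 0.49 (permutation p = 0.0734, adjusted 0.660). Control 5 and restricted 5 held the lowest values of both, and r was 0.17 without them; within letter A it was 0.56 (n = 9). MSTN showed little relation to the genes that bind its product: r was 0.22 with FST (permutation p = 0.452, adjusted 0.921), -0.035 with FSTL3 (permutation p = 0.902, adjusted 0.945), -0.21 with ACVR2A (permutation p = 0.483, adjusted 0.921) and -0.14 with ACVR2B (permutation p = 0.632, adjusted 0.921). Spearman's rho for these 4 pairs was 0.33, 0.046, -0.24 and -0.14 in that order (permutation p = 0.252, 0.878, 0.396 and 0.637, adjusted 0.979 for each). The B titles number 5, too few for a correlation of their own.

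Members were also set beside marker genes of fibre and cell types, scored as the mean log2 CPM of each list. Of 100 relations (10 members, 10 scores), 0 passed after adjustment (smallest adjusted permutation p = 0.683 for r and 0.125 for rho), and 5 had an unadjusted p under 0.05 for r. MSTN ran against the smooth muscle and pericyte score (MYH11, ACTA2, TAGLN, RGS5, CNN1), with r = -0.63 (permutation p = 0.0159, adjusted 0.683) and rho = -0.78 (permutation p = 0.00125, adjusted 0.125); r was -0.60 without control 6 and restricted 7 and -0.45 within letter A. MSTN was not clearly tied to fibre type: r was 0.20 with the fast fibre score and 0.21 with the slow fibre score (permutation p = 0.500 and 0.474, adjusted 0.883 for both), with rho of 0.16 and 0.029 (permutation p = 0.570 and 0.927, adjusted 0.966 and 0.982).

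SMAD3 ran against the adipocyte score, with r = -0.64 (permutation p = 0.0104, adjusted 0.683) and rho = -0.55 (permutation p = 0.0449, adjusted 0.514). Here r was -0.69 without control 5 and restricted 7 and -0.59 within letter A. Control 6 had the lowest adipocyte score and the highest SMAD3, and without it r was -0.53 (permutation p = 0.0606). Without the 3 libraries high in interferon genes r was -0.51 (permutation p = 0.114). With the satellite cell score SMAD3 had r = 0.58 (permutation p = 0.0305, adjusted 0.683) and rho = 0.52 (permutation p = 0.0616, adjusted 0.514). That r was 0.24 without control 5 and restricted 7, though it was 0.66 within letter A. ACVR2A ran with the endothelial score, at r = 0.55 (permutation p = 0.0399, adjusted 0.683) and rho = 0.65 (permutation p = 0.0138, adjusted 0.514). That r was 0.69 without control 3 and control 7 together and 0.61 within letter A. Leaving out control 3 alone lowered r to 0.39 (permutation p = 0.183), and leaving out control 7 alone raised it to 0.78 (permutation p = 0.00162). TGFBR1 ran with the nerve score, at r = 0.59 (permutation p = 0.0272, adjusted 0.683) and rho = 0.61 (permutation p = 0.0234, adjusted 0.514); r was 0.48 without control 2 and restricted 2 and 0.61 within letter A. The part of cell composition in any of these values was not tested.

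**Figure D5:**
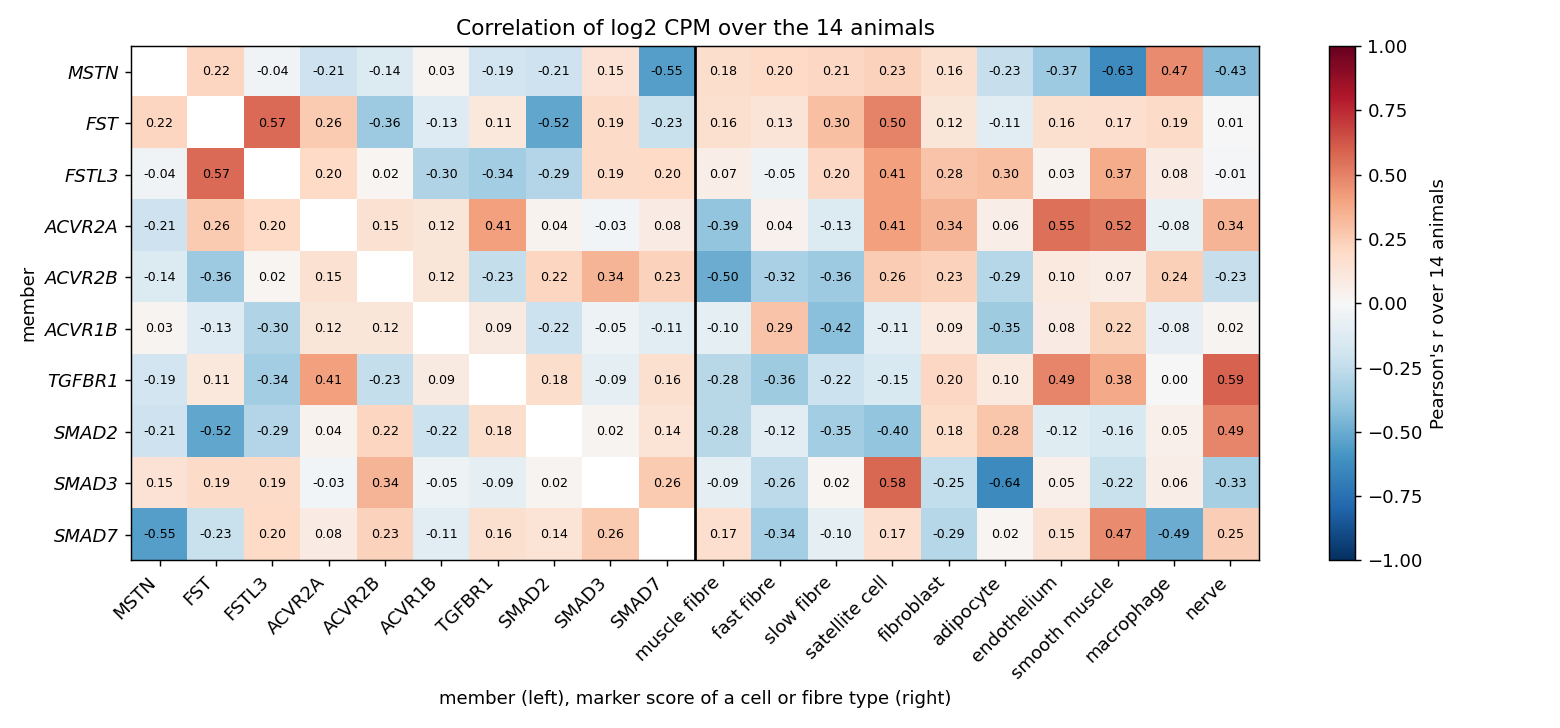
Pearson's r of log2 CPM over the 14 animals between members (left of the line) and between members and marker scores (right); red is positive and blue negative. The strongest value is -0.64, for SMAD3 with the adipocyte score, and none passed after adjustment.

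The genes whose levels over the 14 animals were most like each member's are given as a description, chosen from 8236 or 8237 genes with a symbol and a mean of at least 5 CPM, so that a high r is reached by the choice itself. For MSTN they were MRPL54, a mitochondrial ribosomal protein (r = 0.82, rho = 0.92), CLN6, a membrane protein of the endoplasmic reticulum (r = 0.80), the RNA-binding protein HNRNPK (r = 0.78), the ubiquitin ligase DTX3 (r = 0.75) and the mitochondrial release factor MTRF1L (r = 0.75). Without control 6 and restricted 7 these r values were 0.86, 0.65, 0.68, 0.71 and 0.49. The nearest gene was PEG3, a paternally expressed imprinted zinc finger gene, for SMAD7 (r = 0.90, and 0.74 without restricted 6 and restricted 7) and KLF6, a zinc finger factor, for TGFBR1 (r = 0.82). It was CETN3 for FSTL3 (r = 0.93), MED19 for SMAD3 (r = 0.86), MLXIP for ACVR1B (r = 0.84), PDE5A for SMAD2 (r = 0.83), FAM151B for ACVR2B (r = 0.83), AK4 for FST (r = 0.81) and DENND4C for ACVR2A (r = 0.80).

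The wider pathway was read from 9 lists holding 90 symbols, of which 75 genes were tested. None passed over all genes by edgeR (0 of 75). An unadjusted p under 0.05 was found for 5, of which 2 were positive and 3 negative, a share of 6.67% against 4.25% of all genes. The median log2 fold change of the 75 was -0.046, with 34 positive and 41 negative.

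Among other ligands of the SMAD2 and SMAD3 branch, 6 of 9 were tested and 4 were positive, with a median log2 fold change of 0.064. GDF11, the closest relative of myostatin, had 13.2 CPM per kilobase over the 14 animals. Per kilobase it lay above MSTN in 12 of 14 animals, 1.66-fold in restricted and 1.46-fold in control animals. That order rests on the listed length of GDF11, 1221 bases: without lengths GDF11 averaged 16.1 CPM and MSTN 24.1 CPM. MSTN exceeded INHBB, a subunit of activin B, per kilobase in 14 of 14. INHBA, the subunit of activin A, was not tested, having 1 to 14 reads in an animal. TGFB2, a TGF-beta ligand, had 10.9, 13.7 and 18.6 CPM (lowest, median, highest) in restricted animals, against 9.23, 11.1 and 13.5 CPM in control animals, and 4 restricted animals lay above the control maximum. Its fold change was 1.27 (log2 0.35 ± 0.13 SE, edgeR unadjusted p = 0.0127, adjusted 1.0), and the log2 value was 0.36 within letter A and 0.33 within letter B. TGFB2 was named for its p in these same animals, so the shared sign is no further support.

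Of 10 genes of ligand activation and latency 8 were tested, with a median log2 fold change of -0.21 and 6 negative. Latent TGF-beta binding proteins hold ligand in the matrix, and 2 of them had a small p. LTBP2 had 1.70, 1.89 and 2.43 CPM in restricted animals, against 1.57, 2.79 and 3.55 CPM in control animals, with 7 of 7 restricted animals below the control median (fold change 0.742, edgeR unadjusted p = 0.0238, adjusted 1.0). LTBP3, reported to bind myostatin precursor, had 9.59, 15.3 and 22 CPM in restricted and 14.8, 17.7 and 25.4 CPM in control animals (fold change 0.794, edgeR unadjusted p = 0.0413, adjusted 1.0). FURIN, the protease that cleaves the precursor, was the most abundant of the list at 78.3 CPM over the 14 animals, with LTBP4 next at 53.4 CPM.

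Of 12 other extracellular antagonists and ligand binders 7 were tested, none with an unadjusted p under 0.05 (median -0.068). SPARC, a matrix protein, and decorin (DCN), a proteoglycan that binds TGF-beta and myostatin, were the most abundant at 228.0 and 149.6 CPM. WFIKKN2, an antagonist of myostatin and GDF11, exceeded FST per kilobase in 14 of 14 animals, 3.61-fold in restricted and 3.43-fold in control animals, while its relative WFIKKN1 had 0 to 5 reads and was not tested.

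Of 10 other receptors and co-receptors 8 were tested (2 positive, 6 negative, median -0.15). BMPR2, a type II receptor for BMPs, exceeded ACVR2A per kilobase in 14 of 14 animals, and the type I receptor ACVR1 exceeded ACVR1B in 14 of 14. BMPR2 and BMPR1A were the most abundant at 83.3 and 81.4 CPM. Endoglin (ENG), a TGF-beta co-receptor of endothelium, had 30.04, 37.8 and 46.6 CPM in restricted animals, against 36.0, 44.2 and 56.7 CPM in control animals, with 3 restricted animals below the control minimum (fold change 0.840, edgeR unadjusted p = 0.0459, adjusted 1.0). The 5 endothelial markers PECAM1, VWF, CDH5, KDR and TEK together ran from 148.5 to 206.2 CPM in restricted and from 138.9 to 248.0 CPM in control animals, with 1 of 5 positive and a median log2 fold change of -0.12, and none was at 0. Their part in the value of ENG was not tested.

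The other SMADs were all tested (5 of 5), with 4 positive, a median of 0.060 and none with an unadjusted p under 0.05. The shared partner SMAD4 had 81.7 CPM and exceeded SMAD2 per kilobase in 14 of 14 animals, 1.69-fold in restricted and 1.88-fold in control animals; SMAD1, of the BMP branch, had 40.1 CPM. Among SMAD partners and regulators 17 of 18 were tested, with 7 positive, a median of -0.046 and no unadjusted p under 0.05. The ubiquitin ligase WWP1 led that list at 721.3 CPM, ahead of the deubiquitinase USP9X at 263.1 CPM.

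Among common target genes of TGF-beta signalling 10 of 12 were tested (4 positive, median -0.042), with KLF10 and BHLHE40 the most abundant at 147.0 and 121.6 CPM. CDKN1A, which encodes the cell cycle inhibitor p21, had 11.5, 15.8 and 40.1 CPM in restricted animals, against 6.37, 12.3 and 17.6 CPM in control animals. Restricted 6, the animal with the most SMAD7, also had the most CDKN1A. The fold change was 1.52 with all animals (log2 0.61 ± 0.27 SE, edgeR unadjusted p = 0.0357, adjusted 1.0), and the log2 value was 0.31 without restricted 6, 0.92 within letter A and 0.046 within letter B. The 6 targets of the BMP branch had a median of -0.22 with 2 positive and no unadjusted p under 0.05, and ID3 and ID1 were the most abundant at 14.4 and 12.6 CPM. Of 10 genes of Akt signalling and protein balance 7 were positive (median 0.020) and none had an unadjusted p under 0.05, with the muscle ubiquitin ligases FBXO32 and TRIM63 the most abundant at 189.6 and 159.1 CPM.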

How the data were processed

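The deposited table, made by the authors, holds raw counts of reads per gene, not normalized, with a gene length in bases. FastQC, HISAT2, featureCounts, edgeR and the build ARS-UCD1.2 are named in the submitters' processing notes; their versions, the annotation, strand and multi-mapping settings were not given in the sources used here, so overlapping genes cannot be told apart. No coordinates are given, and no sequences were used here.

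The deposited counts went into edgeR 4.0.16 under R 4.3.3: filterByExpr with the diet groups (minimum count 10, minimum total 15) kept 12187 genes, TMM factors scaled the libraries, and diet was tested by the quasi-likelihood F test without covariates, adjusted by Benjamini-Hochberg at 0.05. The standard error is the log2 fold change over the root of F. Log2 CPM used a prior count of 2. Correlations used 100000 permutations. Alternatives used DESeq2 1.42.0 and limma 3.58.1. The tests were checked on simulated data. Labels state that each sample is 1 animal's muscle at 1 age; p-values measure the spread between these samples. Each member stands on 1 row; for other repeated symbols the row with most reads was used.

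The members and lists were chosen with earlier results of these data known. Named were all 10 members, the 2 most abundant genes of each pathway list, every list gene with an unadjusted p under 0.05, and the genes most like each member (5 for MSTN, 1 for the others). Other genes named (GDF11 and others given as partners of a member, INHBA, WFIKKN1 and MTSS1L) were chosen after their values were seen.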

Additional observations from a re-analysis of the deposited data

Results flagged for a closer look

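Within 1 diet group, SMAD7 in restricted 6, at 35.4 CPM, stood far from the other 6 restricted animals, of which the highest had 12.4 CPM. CDKN1A in the same animal, at 40.1 CPM, stood apart in the same way, with the next restricted animal at 20.4 CPM. These were 2 of the 30 groups examined (15 genes in 2 diet groups). By chance the rule marks about 1 group in 20 of normally distributed values. The CPM were not log-transformed, so the rate here may differ. CDKN1A was examined because of its unadjusted p in these same animals, which depends on restricted 6, so its mark is not separate from that choice. The log2 fold change, restricted over control, was -0.30 for SMAD7 and 0.31 for CDKN1A without that animal.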

How the results depend on the processing

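No paired analysis was possible because the titles share no replicate number between the diet groups. None of the 10 members passed the adjusted threshold under any alternative run, and neither did the 5 other pathway genes with an unadjusted p under 0.05. FSTL3 has no value under the filter of 30 reads in 7 libraries. The number of genes past the threshold was 0 in both directions, 1 lower with DESeq2, 1 higher with titles ending in A and 1 lower with titles ending in B; with no filter 869 genes had an unadjusted p under 0.05, against 518, and 472 to 692 without single animals. Between letters it was 0, 5 without the 3 interferon-high libraries, and 0 to 2 without single animals.

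Log2 fold changes, restricted over control, changed sign as follows. With library size scaling they were -0.029 for ACVR2B, -0.052 for TGFBR1 and -0.013 for SMAD2. With limma's voom they were -0.0067 for ACVR2B and -0.037 for SMAD7. Within letter A they were -0.0022 for MSTN, 0.0094 for ACVR2A and 0.018 for SMAD3. Within letter B, a choice made after seeing the data, they were -0.094 for ACVR2B, -0.38 for TGFBR1, 0.071 for FST, 0.11 for FSTL3, -0.0049 for SMAD2 and -0.88 for SMAD7. Without the 3 libraries FST was at 0.082. Without single animals the values ran from 0.13 to 0.38 for MSTN, -0.069 to 0.0087 for ACVR2A, -0.027 to 0.068 for ACVR2B, -0.15 to 0.013 for ACVR1B, -0.057 to 0.075 for TGFBR1, -0.11 to 0.032 for FST, -0.25 to 0.0094 for FSTL3, 0.0030 to 0.063 for SMAD2, -0.16 to -0.025 for SMAD3 and -0.30 to 0.41 for SMAD7.

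Between letters, B over A, without the 3 libraries the values were 0.031 for ACVR2A, 0.071 for ACVR1B and 0.038 for FST. Without single animals they ran from -0.27 to 0.031 for MSTN, -0.034 to 0.027 for ACVR2A, -0.15 to 0.076 for ACVR1B, -0.16 to 0.060 for TGFBR1 and -0.60 to 0.19 for SMAD7. The r of MSTN with FSTL3 was 0.0024 on deviations from group means, 0.046 as rho, 0.26 within letter A, 0.058 without the 3 libraries, 0.26 without the 2 farthest animals and -0.24 to 0.11 without single animals. With ACVR2B it was 0.39 within letter A and -0.23 to 0.037 without single animals. With the fast fibre score it was -0.22 within letter A and -0.0021 to 0.30 without single animals, and with the slow fibre score -0.0078 within letter A and -0.011 without the 2 farthest animals. The cause of these changes was not tested; most start from values near 0.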
